A study of Mus musculus with 12 samples.

Results

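Fos, Fosb, Fosl2, Jun, Junb, Ier2 and Ier5 are 7 fast immediate early genes, taken here by their symbols from a table of 10073 genes. All 7 were listed, and all 7 were among the 10021 genes that passed the filter for testing (0.5 RPKM or more on average). RPKM is reads per kilobase of gene length and per M reads, M standing for mega, so levels of different genes can be set side by side. They were measured by RNA-seq in naive CD4 T cells, with 12 libraries covering 4 sorted populations from spleen and lymph nodes of each of 3 untreated mice, to ask how basal T cell receptor signalling relates to gene expression. Every mouse carried the Tg(Nr4a1-EGFP)GY139Gsat transgene, in which GFP is driven by regulatory sequence of Nr4a1, the gene of Nur77. Every mouse also carried the Foxp3tm1Flv allele, which reports Foxp3 as RFP, and the background was C57/BL6. The sorted cells were CD4+, lacked Foxp3-RFP and were low in CD44. Among cells with Ly6C, population A had low and population B intermediate Nur77-GFP. Among cells without Ly6C, population C had intermediate and population D high Nur77-GFP. GFP from this transgene is read as recent receptor signalling, no receptor stimulus was given, and the sources used here give no ages. The letters are those of the labels throughout, and C3 stands for the library labelled C from mouse 3.

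The products of Fos, Fosb and Fosl2 and those of Jun and Junb are basic leucine zipper (bZIP) proteins that pair to form AP-1, which binds DNA at TGANTCA, and a Fos protein needs a partner such as a Jun protein to do so. Their genes are switched on within minutes of a stimulus, without new protein synthesis, through MAP kinases, serum response factor and its ETS partners, and their transcripts are short lived. In T cells AP-1 acts with NFAT factors at genes such as Il2. Ier2 and Ier5 are immediate early genes outside the bZIP family, and Ier5 encodes a partner of the phosphatase PP2A.

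Promoters of Jun, Junb and Ier5 are shown because these genes, with Ier2, varied together across the libraries, and those of Fos and Fosb because they formed a second pair. Each runs from 250 bases before to 50 bases after the RefSeq start on GRCm38.p6, 5′ to 3′ on the strand of the gene. The RefSeq table of promoters matched 6 of the 7 genes, all but Ier2. Capitals mark matches on either strand to 7 motifs. TGACG is the core of the cAMP response element and TGACNTCA the wider form of that element, while TGANTCA is the AP-1 site. CCAAT is a common box bound by NF-Y, the GC box bound by SP factors is GGGCGG, and the TATA core is searched as TATAA. The CArG box of serum response factor was searched by its usual definition. In Fosb a pair of GC boxes overlap by a base.
Jun (chr4:95052173-95052472, minus strand): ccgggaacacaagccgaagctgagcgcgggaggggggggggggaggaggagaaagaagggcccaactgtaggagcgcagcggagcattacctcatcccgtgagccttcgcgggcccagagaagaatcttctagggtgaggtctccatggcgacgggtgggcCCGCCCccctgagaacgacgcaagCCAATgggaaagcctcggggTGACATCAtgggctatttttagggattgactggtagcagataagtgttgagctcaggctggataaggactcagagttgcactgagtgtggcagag
Junb (chr8:84978699-84978998, minus strand): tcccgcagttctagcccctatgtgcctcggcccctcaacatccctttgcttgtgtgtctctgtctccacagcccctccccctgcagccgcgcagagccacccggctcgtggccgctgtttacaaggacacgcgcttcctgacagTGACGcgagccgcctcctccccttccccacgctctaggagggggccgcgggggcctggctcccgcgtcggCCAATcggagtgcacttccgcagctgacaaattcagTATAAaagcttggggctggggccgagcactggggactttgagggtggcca
Ier5 (chr1:155099587-155099886, minus strand): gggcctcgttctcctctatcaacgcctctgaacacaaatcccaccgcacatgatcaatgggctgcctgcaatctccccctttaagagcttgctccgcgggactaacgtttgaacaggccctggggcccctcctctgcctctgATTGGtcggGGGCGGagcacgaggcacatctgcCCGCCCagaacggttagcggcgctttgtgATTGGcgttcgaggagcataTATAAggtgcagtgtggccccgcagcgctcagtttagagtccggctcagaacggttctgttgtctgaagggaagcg
Fos (chr12:85473640-85473939, plus strand): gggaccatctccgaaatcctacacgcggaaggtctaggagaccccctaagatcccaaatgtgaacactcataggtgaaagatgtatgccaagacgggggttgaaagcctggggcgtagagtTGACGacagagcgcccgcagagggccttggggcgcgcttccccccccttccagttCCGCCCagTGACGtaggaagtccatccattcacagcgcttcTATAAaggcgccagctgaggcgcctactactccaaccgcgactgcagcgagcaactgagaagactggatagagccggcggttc
Fosb (chr7:19309996-19310295, minus strand): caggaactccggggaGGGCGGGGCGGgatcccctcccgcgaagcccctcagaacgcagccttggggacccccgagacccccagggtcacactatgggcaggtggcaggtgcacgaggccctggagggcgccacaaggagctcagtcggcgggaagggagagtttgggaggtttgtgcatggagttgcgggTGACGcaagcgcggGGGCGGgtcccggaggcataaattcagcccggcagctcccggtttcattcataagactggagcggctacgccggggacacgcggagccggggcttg

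Of the 4 genes that varied together, Jun, Junb and Ier5 each held a CCAAT box, which 37.4% of 32851 promoters of the same length held, and Ier2 has no window here. The Fos, Fosb and Fosl2 windows held none. Jun held TGACNTCA, read as TGACATCA from 45 to 38 bases before the start, a form found in 8.83% of promoters. TGACG was found in Fos, Fosb and Junb and in 20.8% of promoters, and TATAA in Fos, Junb and Ier5 and in 24.9%. The GC box was in 5 of the 6 windows and in 35.7% of promoters. TGANTCA (7.81% of promoters) and the CArG box (1.63%) were in 0 of the 6. Sites more than 250 bases before the start were not searched, so these genes may hold either motif outside the windows. These are matches of letters in a short window and show no binding. The groups of genes come from these same libraries, and a link of any motif to their shared variation was not tested.

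Some libraries stood apart. Nr4a1, the transcript that the transgene is built to follow, was 57.7 RPKM in A1 but 26.1 and 22.9 RPKM in the other A libraries, and 35.97 RPKM in B1 but 73.3 and 64.6 RPKM in the other B libraries. It was 23.4 to 28.3 RPKM in C, near the values of A2 and A3, and 58.8 to 67.8 RPKM in D. Ly6c1, a gene of the Ly6C antigen, was 58.1 to 72.6 RPKM in A and 59.3 to 67.0 RPKM in C, above every library of B (37.1 to 50.2 RPKM) and D (38.3 to 48.4 RPKM). C is labelled Ly6C negative and B Ly6C positive, so C and B went against their labels in this transcript, and both share the label of intermediate GFP although Nr4a1 differed between them. A direction between labelled populations below is therefore one between labels. C3 held transcripts of other cells. Its 3 listed plasma cell markers (Jchain, Prdm1, Xbp1) summed to 837 RPKM against 18.3 to 24.4 in the other libraries. Cd79a and Cd74, the 2 listed of 10 B cell markers, summed to 247 against 6.69 to 28.2. The proliferation markers Mki67 and Top2a summed to 24.3 against 1.81 to 7.18. The 3 listed of 10 myeloid markers (Cd68, Itgam, Cst3) summed to 51.5 against 21.3 to 26.4, and most of that was Cst3 (41.8 RPKM). Cd68 was 8.35 RPKM in C3 and at most 6.27 RPKM elsewhere. Itgam was 1.32 RPKM in C3, within its range over the 12 libraries (1.04 to 1.63 RPKM). Of the naive CD4 T cell markers, Cd4 was 223.5 to 249.5 RPKM and Cd3e 268 to 294 RPKM over the 12 libraries, with the lowest Cd3e in C3. Hba-a2 and Hbb-bs, the 2 listed of 5 red blood cell markers, also split the libraries. Their sum was 8.13 to 22.4 RPKM in A1, B1, C2 and D2 and 133 to 176 RPKM in the other libraries. That split crosses the mouse numbers, and its source and its part in the ratios within a mouse were not tested. The depth recovered from the values was 6.31 (A3) to 9.07 (C1) M reads. In such sorted bulk samples, fewer cells with a transcript and less of it per cell cannot be told apart.

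Transcripts of 5 of the 7 genes were abundant in these unstimulated cells. The mean level over 12 libraries was 226 RPKM for Junb, 138 for Jun, 98.6 for Fos, 67.5 for Ier2 and 46.5 for Ier5, against 6.80 for Fosb and 3.03 for Fosl2. By mean level Junb was number 159 and Jun number 285 of 10073 listed genes from the top, followed by Fos (461), Ier2 (787), Ier5 (1310), Fosb (7026) and Fosl2 (8690). This order, Junb, Jun, Fos, Ier2, Ier5, Fosb, Fosl2, held for each pair of neighbours in 12 of 12 libraries. Its closest step was from Fosb to Fosl2, with a ratio of RPKM within a library of 1.06 to 9.81. Over the whole set of libraries the ranges of Jun (114 to 182 RPKM) and Fos (87.5 to 125) overlapped, and those of the other neighbours did not.

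**Figure D1:**
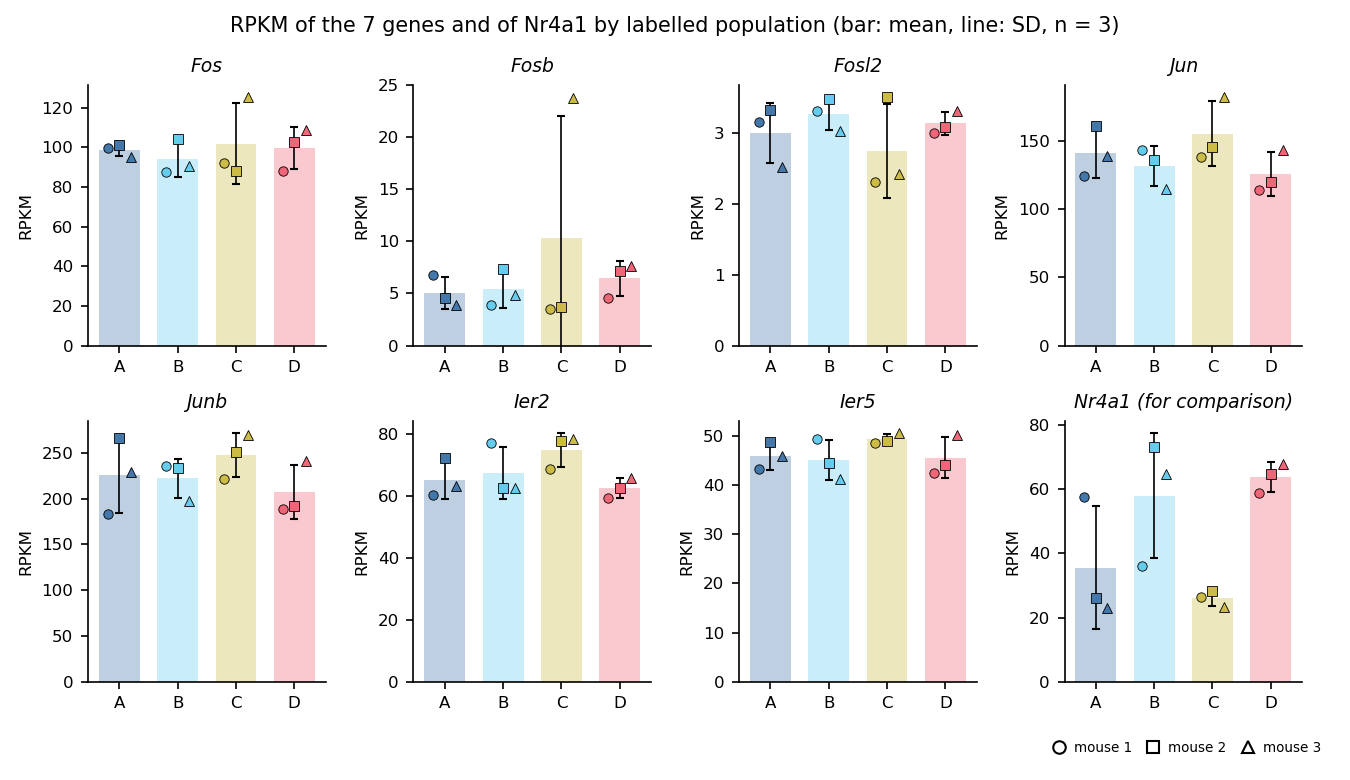
RPKM of the 7 genes, and of Nr4a1 for comparison, in the 12 libraries by labelled population on the x axis; bars are means, lines the SD (n = 3) and points the mice. Each y axis starts at 0 and has its own scale; the high Fosb point in C is C3 at 23.8 RPKM, where the SD line is cut at 0, and the 7 genes overlap between most populations.

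In the fit of all 12 libraries no member passed an adjusted p of 0.05 between any pair of populations. Over 7 genes and 6 pairs of populations, 0 of 42 tests passed, the smallest adjusted p being 0.168 (Ier2, D against C; limma, Benjamini-Hochberg over 10021 genes), and 3 of 42 had an unadjusted p under 0.05. All 3 were Jun or Ier2, in D against C or C against A. Of all genes, 18.1% were under that unadjusted p in D against C, 23.1% in B against A, 19% in D against A, 13.4% in C against B, 4.09% in D against B and 14.2% in C against A. limma-voom on recovered whole reads also called 0 of 42, with 2 at an unadjusted p under 0.05. The share of all genes that limma-voom called is not reported here, so its 0 of 42 has no share to be read against. The F test over the 4 populations called 0 of the 7 against 0.00998% of all genes, with adjusted p from 0.268 (Ier2) to 0.899 (Fos) by limma. The 95% intervals bound these differences. For the 6 members other than Fosb, and D against C, B against A, D against A and C against B, every interval of the fold change lay between 0.671 and 1.425, and for Fosb between 0.405 and 2.93.

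Jun and Junb, the Jun partners of AP-1, were lower in D (GFP high) than in C (GFP intermediate) in each of the 3 mice. With D and C fitted alone neither passed the test (adjusted p = 0.216 for Jun and 0.228 for Junb by limma). Both passed when the mouse was added to that fit as a block, a choice made after seeing the data. The fit with the block called 6.4% of all genes, and 2.2% as lower. Libraries of one mouse were not more alike than others, with a mean correlation of deviations of -0.0721 within a mouse and 0.0316 between mice. The share of all genes with one direction in each of the 3 mice was not counted for any pair of populations. Jun was 138, 145 and 182 RPKM in C1, C2 and C3 and 114, 120.0 and 144 RPKM in D1, D2 and D3. The highest D library, from mouse 3, lay above the lowest C library, so the groups overlapped. Within a mouse the ratio of D to C was 0.821, 0.825 and 0.789. Across all 12 libraries the log2 difference of Jun was -0.30 ± 0.13 (SE; 95% interval -0.58 to -0.03; adjusted p = 0.236 by limma). Junb was 222, 251 and 269 RPKM in C and 189, 192 and 241 RPKM in D, and again only D3 reached into the range of C. Its ratios within mice were 0.849, 0.762 and 0.895, and its log2 difference was -0.26 ± 0.13 (95% interval -0.55 to 0.03; adjusted p = 0.324 by limma).

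Ier2, like Jun and Junb, was called as lower in D with the mouse block on D and C alone. That fit was chosen after seeing the data, and without the block the adjusted p of Ier2 was 0.0712 by limma. Ier5 was called in no fit. Ier2 was 68.6, 77.6 and 78.4 RPKM in C and 59.4, 62.6 and 65.9 RPKM in D, so that every D library lay below every C library. It was the 1 member of 7 with groups that did not overlap, a pattern of 24% of all genes tested (9.89% lower in D). Its log2 difference was -0.25 ± 0.09 (95% interval -0.45 to -0.06), with an unadjusted p of 0.015 and an adjusted p of 0.168 by limma, where 18.1% of all genes had an unadjusted p under 0.05. Ier5 was 48.6, 49.0 and 50.6 RPKM in C and 42.5, 44.1 and 50.2 RPKM in D, lower in D in 3 of 3 mice with a log2 difference of -0.12 ± 0.07 (adjusted p = 0.443 by limma). The difference in Ier5 lay within the spread of the D libraries.

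How many members were called between D and C depended on the fit. With all 12 libraries limma called 0 of 7, against 0.00998% of all genes, and with the 6 libraries of D and C alone also 0 of 7, against 4.8%. Adding the mouse number as a block to those 6 libraries, a choice made after seeing the data, called 3 of 7, all lower in D, against 6.4% of all genes in either direction and 2.2% lower. They were Jun (-0.30 ± 0.04, adjusted p = 0.00781 by limma), Ier2 (-0.25 ± 0.04, adjusted p = 0.0217) and Junb (-0.26 ± 0.05, adjusted p = 0.0358). With C3 also left out, these 3 were called again, at log2 differences of -0.28 for Jun, -0.26 for Ier2 and -0.31 for Junb and adjusted p of 0.00805, 0.0256 and 0.0162 by limma, where 7.65% of all genes were called and 2.9% were lower. Without A1 and B1 in the fit of the populations together, Ier2 was called as lower (adjusted p = 0.0419 by limma) against 7.63% of all genes. Markers of other T cells also differed between C and D. The summed RPKM of Foxp3, Il2ra, Ctla4, Ikzf2 and Tnfrsf18 was 24.9 to 28.5 in C and 54.2 to 63.0 in D, with all 5 listed. Cd8b1, the 1 listed of 2 CD8 T cell markers, was 12.7 to 16.0 RPKM in C and 10.2 to 11.2 RPKM in D, without overlap and called as lower in D with the 6 libraries alone (adjusted p = 0.0354 by limma) and with the block (0.0293). The part of either in the results for D and C was not tested.

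In the Fos family no decrease from C to D was called in any fit. Fos was 92.3, 88.1 and 125 RPKM in C and 88.2, 102 and 109 RPKM in D, with C3 the highest of all 12 libraries and the rest of C and D intermixed. Its log2 difference was -0.02 ± 0.12 (95% interval -0.28 to 0.24; adjusted p = 0.957 by limma). Without C3 the sign turned, to 0.14. Fosl2, which encodes the Fos relative Fra-2, was 2.30, 3.50 and 2.42 RPKM in C and 3.00, 3.09 and 3.31 RPKM in D, within the range of C, with a log2 difference of 0.18 ± 0.14 (adjusted p = 0.527 by limma). Whether the differences of Fos and Jun are unlike each other was not tested.

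Fosb rested on 1 library. It was 3.51 and 3.70 RPKM in C1 and C2, 23.8 in C3, and 4.56, 7.11 and 7.63 RPKM in D. Every D library lay above C1 and C2 and below C3. With C3 the log2 difference was -0.13 ± 0.54 (95% interval -1.30 to 1.05; adjusted p = 0.929 by limma). Leaving C3 out, it was 0.73, with an adjusted p of 0.22 in the fit of the other 11 libraries, 0.0415 with D and C alone (6.5% of all genes called) and 0.0461 with A1 and B1 also left out (8.39%), by limma, and with the mouse block on D and C alone 0.60 (adjusted p = 0.0692; 7.65%). C3 is the library high in plasma cell, B cell and proliferation markers and in Cst3, and their part in its Fosb was not tested. Fosb reads recovered from the values ran from 101 to 671 per library, so counting error (6.79% on average as a coefficient of variation) was small beside the 81.7% observed, or 30.7% without C3. These errors cover counting only.

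**Figure D2:**
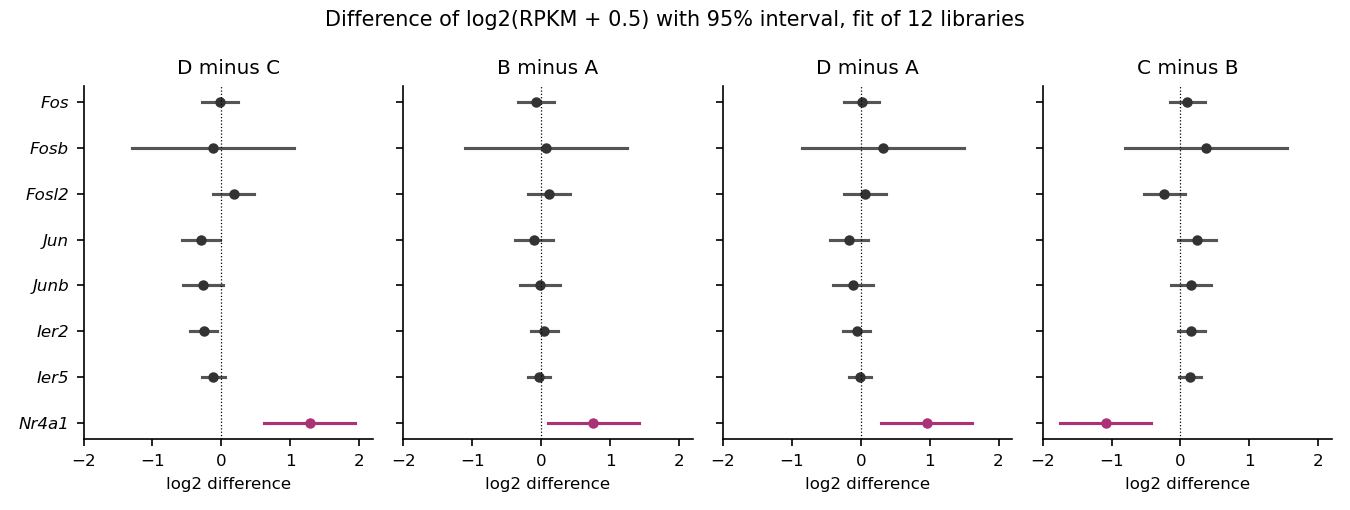
Log2 differences between labelled populations from the fit of 12 libraries (x axis, with 95% intervals as lines), for the 7 genes and Nr4a1 (y axis) in D minus C, B minus A, D minus A and C minus B. Jun and Ier2 have intervals below 0 in D minus C before adjustment over all genes, the widest intervals of the 7 genes are those of Fosb, and Nr4a1 lies above 0 in D minus C at 1.28.

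Between B (GFP intermediate) and A (GFP low), both labelled Ly6C positive, no member passed the test. limma called 0 of 7, against 2.23% of all genes, and 0 of 7 had groups that did not overlap, against 29.2% of all genes. Jun was 124, 161 and 139 RPKM in A and 143, 136 and 115 RPKM in B, a log2 difference of -0.10 (adjusted p = 0.664 by limma). Mouse 1 ran against the others. Jun was 1.15 times as high in B as in A in mouse 1 and 0.846 and 0.830 times in mice 2 and 3. Junb (ratios 1.29, 0.879 and 0.864), Ier2 (1.28, 0.868 and 0.989) and Ier5 (1.14, 0.912 and 0.900) shared that pattern. Nr4a1, whose ratios were 0.624, 2.80 and 2.83, had the opposite pattern, A1 and B1 being the 2 libraries whose Nr4a1 went against their labels. The remaining members had log2 differences of -0.07 for Fos, 0.08 for Fosb, 0.11 for Fosl2, -0.01 for Junb and -0.03 for Ier5, with adjusted p from 0.650 to 0.968 by limma. Leaving out A1 and B1, the log2 differences were larger, at -0.25 for Jun, -0.20 for Junb, -0.14 for Ier5 and 0.47 for Fosb, and that of Ier2 turned from 0.04 to -0.11. 0 of 7 members were called, against 10.9% of all genes, the smallest adjusted p being 0.268 (Ier5, limma).

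D and A, the ends of the GFP range, gave no called member. limma called 0 of 7, against 0.00998% of all genes, and 0 of 7 had groups that did not overlap, against 25.8%. Fos was 99.4, 101 and 95.2 RPKM in A, inside the 88.2 to 109 RPKM of D, for a log2 difference of 0.01 (95% interval -0.25 to 0.27). Jun was lower in D by 0.17 on the log2 scale (95% interval -0.44 to 0.11; adjusted p = 0.496 by limma) and Junb by 0.12 (-0.41 to 0.17; adjusted p = 0.655). Ier2 was 60.2, 72.2 and 63.2 RPKM in A and differed by -0.06 (-0.25 to 0.14), and Ier5 was 43.2, 48.8 and 45.8 RPKM and differed by -0.01 (-0.18 to 0.15). Fosb was 6.77, 4.54 and 3.87 RPKM in A, its highest value being in A1, and its log2 difference was 0.32 (adjusted p = 0.774 by limma). Nr4a1 itself differed by 0.96 with an adjusted p of 0.169 by limma, so in this fit the gene behind the reporter was not called either. Leaving out A1 and B1, 0 of 7 members and 8.84% of all genes were called, and without C3 as well 0 of 7 and 13.5%. The log2 differences without A1 and B1 were -0.25 for Jun, -0.26 for Junb, -0.11 for Ier2 and 0.53 for Fosb, with adjusted p of 0.212 for Junb, the smallest, to 0.957 for Fos by limma.

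C and B, which share the label of intermediate GFP and differ in the Ly6C label, gave 0 of 7 called against 0.00998% of all genes, and 0 of 7 without overlap against 15.1%. The log2 differences of Jun (0.24), Junb (0.15), Ier2 (0.15) and Ier5 (0.14) were above 0 with adjusted p from 0.436 to 0.655 by limma. Fosb was 3.92, 7.36 and 4.89 RPKM in B. Its log2 difference of 0.38 turned to -0.67 when A1, B1 and C3 were left out, and that of Fos from 0.10 to -0.11. Comparisons that share a population share its libraries: D against C and C against B both use C3. The step from C to D was compared with that from A to B by an interaction term. It called 0 of 7 members and 0% of all genes, and for Ier2, the member with the smallest p, the difference of steps was -0.30 ± 0.13 (unadjusted p = 0.0364, adjusted p = 0.305 by limma), so the steps were not shown to differ.

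The median log2 difference of the 7 members, beside that of all genes tested, was -0.13 against 0.01 in D minus C, -0.01 against 0.01 in B minus A, -0.01 against 0.01 in D minus A and 0.15 against -0.00 in C minus B. In D minus C 6 of the 7 were below 0, and the seventh was Fosl2. The median of -0.13 there is the value of Fosb, which rested on C3. Without C3, 4 members were below 0 and 3 above, with a median of -0.10 against 0.01 for all genes.

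Across the 12 libraries, Jun, Junb, Ier2 and Ier5 varied together. The Pearson correlations of their log2 levels over the 12 libraries, for 6 pairs of genes, were 0.806 to 0.924 (Spearman 0.860 to 0.930), and 0.746 to 0.937 without C3. After the mean of each labelled population was taken off they were 0.750 to 0.917, so the 4 genes also varied together among libraries with the same label. Those libraries include A1 and B1, whose Nr4a1 went against their labels, so differences between populations may remain in these values. The points share mice, populations and, within a library, its RNA and depth, so these are descriptions. Fos and Fosb formed the other close pair, at 0.912 (Spearman 0.783), or 0.812 without C3. Fos and Jun, partners in AP-1, were less alike, at 0.583 and 0.211 without C3.

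Levels of the first 4 genes tended to run opposite to Nr4a1. Their Pearson correlations with Nr4a1 were -0.689 to -0.617 and their Spearman correlations -0.546 to -0.371 over the 12 libraries. Single libraries went both ways. A1 had the lowest Junb of all (183 RPKM) with the highest Nr4a1 of A, while B2, with the highest Nr4a1 of all (73.3 RPKM), had 234 RPKM of Junb, and D3 had 67.8 RPKM of Nr4a1 with 241 RPKM of Junb. The sum of 5 regulatory T cell markers was 63.2 RPKM in A1 and 27.1 and 25.5 RPKM in A2 and A3. Fosb went with Nr4a1 in the libraries other than C3, at 0.831, but at 0.077 with C3 (Spearman 0.497). C3 was the highest library for 6 members, at 5.21 times the median of the others for Fosb, 1.32 for Fos and Jun, 1.24 for Ier2, 1.18 for Junb and 1.10 for Ier5. For Fosl2 the ratio was 0.769.

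**Figure D3:**
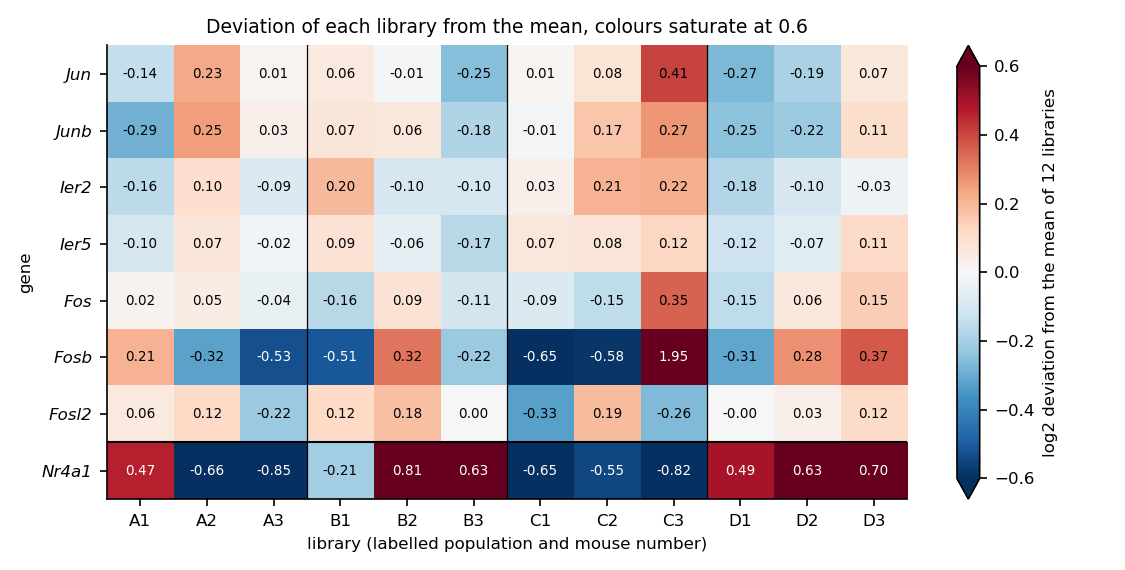
Log2 deviation of each gene (rows) from its mean over the 12 libraries (columns, by labelled population and mouse), with red above and blue below the mean and colours ending at 0.6 in either direction. Jun, Junb, Ier2 and Ier5 share their colours along the libraries, Fosb is highest in C3, and A1, low for Junb, is high for Nr4a1.

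**Figure D4:**
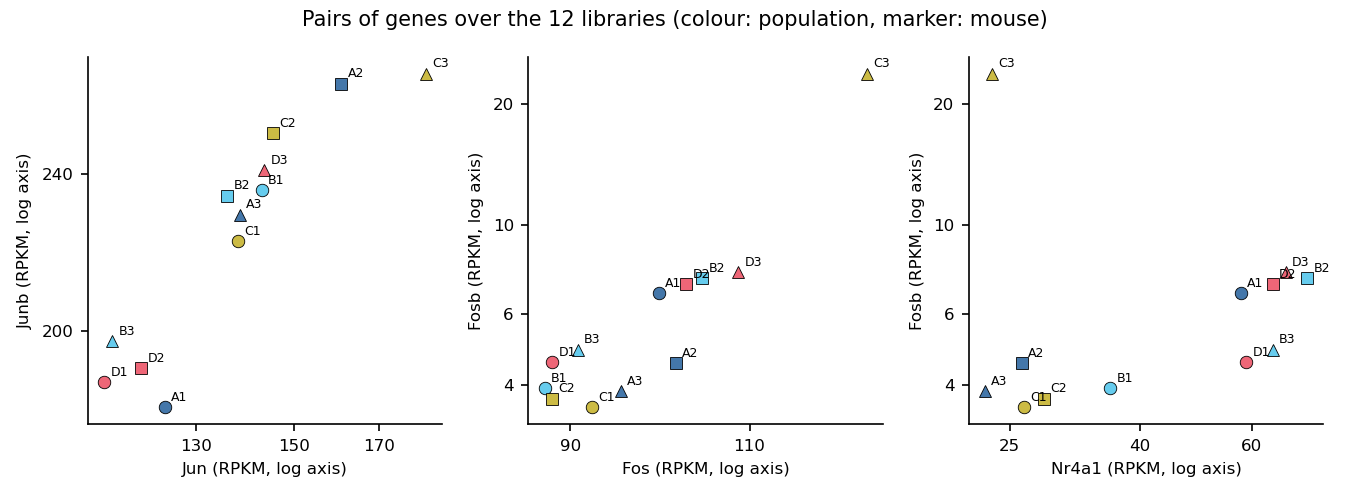
RPKM of 2 genes against each other in the 12 libraries, on log axes, for Jun (x) and Junb (y), Fos (x) and Fosb (y), and Nr4a1 (x) and Fosb (y); colours are labelled populations and marker shapes are mice. Jun and Junb go up together, and C3 stands apart in both plots of Fosb, at 23.8 RPKM.

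The spread of the members over libraries was larger than counting error. Fold ranges from the lowest to the highest library were 1.43 for Fos, 1.52 for Fosl2, 1.60 for Jun, 1.47 for Junb, 1.32 for Ier2 and 1.23 for Ier5, and 6.76 for Fosb. As a coefficient of variation, Jun varied by 14.1% where counting alone gives 1.70%, and Junb by 13.2% against 1.75%. For Fosl2, at 102 to 192 reads per library, the observed 13.5% stood beside a counting error of 8.08%.

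By Pearson correlation over the 12 libraries, the genes most like the mean of the 7 members among 8845 candidates of at least 2 RPKM were Atf4 (0.942), which encodes the bZIP factor of the integrated stress response, Cog8 (0.914) and Hspa8 (0.911), a constitutive heat shock protein. Slc39a7 (0.897), Rubcn (0.894), Cyba (0.893) and Lmnb2 (0.874) came next. The nearest gene to Jun (0.929) and to Junb (0.987) was Ppp1r15a, which encodes the regulatory subunit of a phosphatase for eIF2 alpha. Ppp1r15a was 74.5 RPKM in D1 and 109 RPKM in C3. The gene nearest to Fos was Hspa5 (0.880), to Ier2 Tbrg1 (0.961), to Ier5 Tut1 (0.925) and to Fosl2 Abcc5 (0.893, but Spearman 0.676). That nearest to Fosb was Mki67 (0.979), at 17.05 RPKM in C3 and 0.550 to 3.27 RPKM elsewhere, so this likeness is one of C3.

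Genes around the members in their pathway were read from lists that were chosen with results of these data known. In the fit of 12 libraries limma called 0 genes of every list in D against C, B against A, D against A and C against B. At an unadjusted p under 0.05 in D against C, where 18.1% of all genes passed, there were 17 of 40 other immediate early genes, 3 of 10 other AP-1 and related bZIP genes, 4 of 29 genes of the MAP kinase and serum response factor pathway, 2 of 4 NFAT genes and 1 of 11 heat shock genes. In the same order of lists these counts were 8, 1, 8, 0 and 1 in B against A (23.1% of all genes), 12, 3, 5, 1 and 0 in D against A (19%), and 10, 3, 5, 0 and 1 in C against B (13.4%), so several lay near the share of all genes. With D and C fitted alone (4.8% of all genes called, 3.35% higher and 1.45% lower), 9 of the 40 other immediate early genes were higher in D and 0 lower. They were the orphan receptors Nr4a1 (log2 difference 1.28, adjusted p = 9.6e-05 by limma), Nr4a3 (1.46) and Nr4a2 (1.54), the zinc finger factors Egr2 (0.90) and Egr3 (0.55), the MAP kinase phosphatases Dusp4 (1.45) and Dusp6 (0.43), Zfp36l1 (0.26), which encodes an mRNA decay factor, and Rel (0.36), an NF-kB subunit. Nr4a1 drives the reporter that defined the gates, so its own change is no separate finding. Egr2 was 4.05, 4.66 and 5.73 RPKM in C and 10.2, 9.12 and 8.85 RPKM in D, without overlap.

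Of the 10 other bZIP genes, 1 was higher in D and 0 lower with D and C alone, where 3.35% of all genes were higher and 1.45% lower. It was Maf, which encodes a large Maf factor and was 2.94 to 3.64 RPKM in C and 8.52 to 10.2 RPKM in D, higher by 1.40 on the log2 scale (adjusted p = 0.000181 by limma with D and C alone). Jund, the third Jun gene, was 90.5, 96.2 and 111 RPKM in C and 78.3, 87.4 and 75.7 RPKM in D, with every D library below every C library. Its log2 difference was -0.30 ± 0.08, close to those of Jun and Junb, with an adjusted p of 0.111 in the fit of 12 libraries, 0.0953 with D and C alone, 0.0936 with the mouse block on those 6 libraries, 0.0377 without A1 and B1 and 0.0578 without A1, B1 and C3, by limma, so it passed in 1 of these 5 fits. Batf, whose protein pairs with Jun proteins, was 19.1, 21.9 and 23.9 RPKM in C and 21.2, 23.0 and 29.4 RPKM in D and overlapped. Median log2 differences in D minus C were 0.11 for the other immediate early genes and 0.06 for the bZIP genes, against -0.13 for the 7 members and 0.01 for all genes.

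Among upstream genes, with D and C alone, 1 of 29 genes of the MAP kinase and serum response factor pathway was higher in D and 0 lower, a share near the 3.35% of all genes called higher. It was Elk3 (0.62, adjusted p = 0.00237 by limma), an ETS partner of serum response factor. Srf itself was 29.3 to 31.2 RPKM in C and 30.9 to 32.1 RPKM in D. Of 4 NFAT genes 1 was higher, Nfatc1 (0.54, adjusted p = 0.00233 by limma), at 24.4 to 25.1 RPKM in C and 34.4 to 39.6 RPKM in D. Of 11 heat shock genes 0 were called in D against C, 3 having an unadjusted p under 0.05, and the smallest adjusted p was 0.169 for Hspd1 (0.17) by limma with D and C alone. Of these 11 genes, 7 were lower in D and 4 higher. The largest decreases were those of Hspa1a (-0.35), Hspa1b (-0.31), Bag3 (-0.26) and Dnajb1 (-0.19), each lower in D in every mouse. Their adjusted p in that fit ran from 0.212 (Bag3) to 0.490 (Hspa1a) by limma. With the mouse block added to those 6 libraries, the fit that called Jun, Junb and Ier2 (4.2% of all genes higher and 2.2% lower), limma called 11 of the other immediate early genes higher and 4 lower. In that fit 2 of 29 MAP kinase and serum response factor genes were higher (Elk3 and Rasgrp1) and 0 lower, 2 of 4 NFAT genes were higher (Nfatc1 and Nfatc3) and 0 lower, and 1 of 11 heat shock genes was lower (Dnajb1, which encodes an HSP40 co-chaperone, by 0.19, adjusted p = 0.0482 by limma) and 0 higher. The 4 lower immediate early genes were Klf2, Plk3, Pim1 and Ppp1r15a, the last being the gene nearest to Jun and Junb across libraries. The part of handling in the members' differences was not tested. In B against A with those 6 libraries alone (3.79% of all genes called), 1 gene of these 5 lists was called, Rps6ka3, which encodes the kinase RSK2 and was lower in B by 0.35 (adjusted p = 0.0217 by limma). Leaving out A1 and B1 from the fit of all populations, 11 of the 40 other immediate early genes were higher in B than in A and 0 lower, and in D against C 10 were higher and 4 lower (Pim1, Plk3, Myc and Btg2). Of all genes, 6.66% were called higher in B against A, and 5.05% higher and 2.58% lower in D against C.

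**Figure D5:**
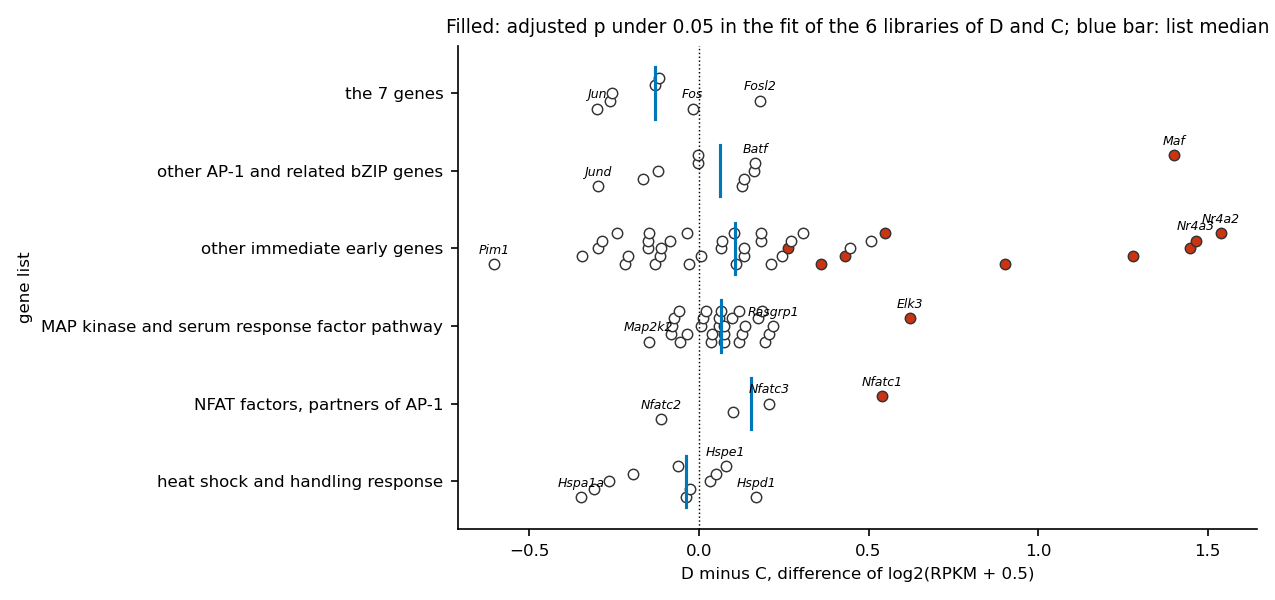
Log2 differences D minus C of single genes (points, x axis) for the 7 members and 5 lists of related genes (y axis); filled points passed an adjusted p of 0.05 in the limma fit of the 6 libraries of D and C, and blue bars are list medians. The 7 members lie between -0.30 and 0.18 with 0 filled, and 9 of 40 other immediate early genes are filled, all above 0.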

How the data were processed

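RNA was measured in 12 libraries. Per the labels' protocols, cells were sorted into lysis buffer, RNA was taken up with the Zymo Quick-RNA MicroPrep kit, and libraries of polyadenylated RNA were made with SMART-seq v4 and NexteraXT. The submitters' processing notes name STAR and the builds mm9 and mm10 without roles, and the counting tool, annotation and strand setting stand in none of the sources used here. The authors deposited RPKM values per gene and library, per the file headers. Reads shared by overlapping genes cannot be traced in them.

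Whole reads (tolerance 0.1 read) came back from RPKM, gene length and depth for 100.0% of values examined, which gave the depth of each library. Counting errors are Poisson errors of those reads. The test was limma 3.58.1 (R 4.3.3) with a trend, applied to log2(RPKM + 0.5) of 10021 genes averaging 0.5 RPKM or more, on all 12 libraries without a block. Differences are on that scale and understate changes of low genes. Benjamini-Hochberg adjustment ran over all genes of a comparison, with 0.05 as the threshold. On simulated data for D minus A with 10021 genes, 92% of 100 genes changed by 1 on the log2 scale were recovered. The simulated noise was normal and independent between libraries, with no library made like A1, B1 or C3. That share is therefore not the power in these data. Here the fit of 12 libraries called 1 of 10021 genes in D minus A, and it did not call Nr4a1 at 1.28 in D minus C. Python 3.11.15, numpy 2.4.6, pandas 2.3.3, scipy 1.17.1 and matplotlib 3.10.9 did the rest. RefSeq promoters are on GRCm38.p6 and placed no reads.

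The members and lists were chosen with earlier results of these data known. Named genes are the 7 members, Nr4a1, Ly6c1 and other sort markers, up to 4 genes of each list by smallest p, and the genes most like the members. Further list genes, Jund, Batf, Srf and Ppp1r15a among them, and the single markers of C3 were named after their values were seen. Ly6c2 was not analysed here, and some genes due under this rule are not reported here. Per the labels, libraries with one mouse number come from 1 animal. Deviations from population means had a mean correlation of -0.0721 within a mouse (range -0.613 to 0.379, 1 of 18 pairs over 0.1) and 0.0316 between mice. For 2 of 12 libraries the closest library was from the same mouse. Alternatives were pseudocounts of 0.1 and 1, no filter, a filter at 5 RPKM, median rescaling and quantile normalization, robust moderation, the mouse block, limma-voom, the 6 libraries compared alone, and leaving out libraries. Those chosen after seeing the data left out A1, B1 and C3 together, or fitted 2 populations alone with the mouse block or without C3.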

Additional observations from a re-analysis of the deposited data

Results flagged for a closer look

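Fosb in C3 lay far from the other libraries in 2 sets of 6. Among the 6 libraries labelled GFP intermediate, C3 was at 23.8 RPKM and the gap to the next library took 0.810 of the whole range, above Dixon's critical value for 6 samples. Among the 6 labelled Ly6C negative the same value gave 0.797. In all 21 sets of 6 libraries were looked at, and chance alone marks about 1 in 20 such sets. Both sets hold the same library, which also carried 837 RPKM of plasma cell markers, and the part of those cells was not tested.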

How the results depend on the processing

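Over 29 results and 733 alternatives, 690 kept the direction and the side of the threshold and 36 changed sign. The other 7 kept the direction and passed the threshold where the fit of 12 libraries did not. Among the 36, Fosb in D minus C also passed the threshold with D and C alone without C3 (adjusted p = 0.0415 by limma). It did so without A1, B1 and C3 as well (0.0461). Members called in D against C numbered 0 in the fit of 12 libraries, 1 without A1 and B1, 1 without A1, B1 and C3, 1 with D and C alone without C3, 3 with D and C alone and the mouse block, and 3 with that block and without C3. All genes called there numbered 1 with 12 libraries, 481 with D and C alone, 641 with the block added, 765 without A1 and B1, 841 without A1, B1 and C3, 651 with D and C alone without C3, and 767 with the block and without C3. With the mouse number as a replicate block on all 12 libraries, 0 members were called in each comparison, as without it, and all genes called in B against A went from 223 to 2.

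Signs turned in small differences. In D minus C, Fos was 0.14 without A1, B1 and C3 and with D and C alone without C3, and 0.0759 with the block, while Fosb was 0.727 in the first 2 of these and 0.597 with the block. Ier2 in B minus A was -0.11 without A1 and B1, with or without C3. Fos in D minus A was -0.00341 after median rescaling and -0.0017 after quantile normalization. Fos in C minus B was -0.109, and Fosb -0.666, without A1, B1 and C3. The cause was not tested.

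Leaving out each library in turn called 0 members in every comparison. Without C3, limma called 0.00998% of all genes in D minus C and in D minus A, and 4.6% in B minus A. It called 0% in C minus B, D minus B and C minus A, so few genes of any kind passed in most pairs. The shares of all genes without each of the other libraries are not reported here. The log2 differences whose sign turned ranged, in D minus C, from -0.113 to 0.14 for Fos and -0.571 to 0.727 for Fosb. In B minus A they ranged from -0.153 to 0.287 for Fosb, -0.155 to 0.114 for Junb, -0.055 to 0.119 for Ier2 and -0.0983 to 0.0298 for Ier5. In D minus A they ranged from -0.0523 to 0.0972 for Fos, -0.0403 to 0.128 for Fosl2, -0.262 to 0.00727 for Junb, -0.11 to 0.0192 for Ier2 and -0.083 to 0.0358 for Ier5. In C minus B they ranged from -0.0579 to 0.195 for Fos and -0.479 to 0.818 for Fosb. The lowest read numbers behind a member were 101 for Fosb and 102 for Fosl2.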

Other observations

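The remaining pairs of populations gave the members little difference. In C against A limma called 0 of 7 members and 0% of all genes, 17.9% of which had groups that did not overlap; Ier2 was higher in C in 3 of 3 mice, by 0.20 on the log2 scale (unadjusted p = 0.0467, adjusted p = 0.348 by limma), and Ier5 was higher in 3 of 3 by 0.10. In D against B limma called 0 of 7 members and 0% of all genes, the log2 differences of the members ranging from -0.11 for Junb to 0.25 for Fosb, with adjusted p from 0.958 to 0.985.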
